A study of Homo sapiens with 12 samples.

Results

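Among 6 vehicle cultures of stem cell-derived pancreatic alpha cells, 3 carried abundant heart muscle transcripts and 3 carried almost none. The members of the 2 classes were chosen by the measured level of MYH6, the gene of the atrial myosin heavy chain, in CPM (the gene's count divided by all counts of the library, times 1e+06). Libraries DMSO 1, DMSO 4 and DMSO 5 lay above 100 CPM and form the high class, and libraries DMSO 2, DMSO 3 and DMSO 6 lay below 10 CPM and form the low class. These 6 are all vehicle libraries among the 12 libraries of the series. MYH6 was 201, 179 and 679 CPM in DMSO 1, 4 and 5, and 0.707, 0.228 and 5.85 CPM in DMSO 2, 3 and 6. DMSO 4 was the library just inside the upper limit and DMSO 6 the one nearest below the lower limit, with no library in between. Because these values chose the classes, the fitted differences and calls of heart genes in the vehicle libraries are descriptions, and no p-value is printed for them.

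All cultures came from the human embryonic stem cell line HUES-8, an established line that had been differentiated by the protocol of Peterson and colleagues toward alpha cells. These are the islet cells that secrete glucagon. They were kept for 48 h in 30 mL bioreactors turning at 40 rpm, with the solvent DMSO alone or with 5 uM tunicamycin, which blocks N-glycan assembly and causes stress of the endoplasmic reticulum. Each treatment has 6 libraries numbered as biological replicates, with numbers 1 to 3 in batch 1 and 4 to 6 in batch 2. Batch 1 thus holds 1 high and 2 low vehicle libraries, and batch 2 holds 2 high and 1 low. A single cell line was used, and whether a number marks a separate differentiation, or a culture split between DMSO and tunicamycin, was not stated in the labels. P-values therefore measure the spread between these libraries, which may be technical.

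Heart muscle cells contract through sarcomeres, in which myosin filaments pull on actin filaments under the control of the calcium-sensing troponin complex. The heart builds its sarcomeres from its own set of isoforms, several of which differ between atria and ventricles, and early heart muscle also uses isoforms that are later replaced. Heart muscle arises from mesoderm under transcription factors such as NKX2-5, TBX5 and GATA4, whereas islet cells arise from endoderm, although some regulators, including GATA4 and ISL1, work in both lineages.

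The promoters of MYH6 and of MYL7, which encodes the atrial regulatory myosin light chain, are shown because these transcripts separated the classes together and are the myosin pair of atrial muscle. Each is the 250 bases before the RefSeq start on GRCh38.p14, written 5′ to 3′ on the gene's strand, which is the minus strand for both. The MYH6 window lies at chr14:23408274-23408523 and the MYL7 window at chr7:44141333-44141582. Capitals mark matches to the searched motifs.
MYH6: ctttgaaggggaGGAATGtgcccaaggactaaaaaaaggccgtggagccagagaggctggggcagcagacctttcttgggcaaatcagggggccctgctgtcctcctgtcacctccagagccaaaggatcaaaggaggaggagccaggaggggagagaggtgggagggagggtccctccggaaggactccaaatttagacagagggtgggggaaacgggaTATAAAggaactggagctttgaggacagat
MYL7: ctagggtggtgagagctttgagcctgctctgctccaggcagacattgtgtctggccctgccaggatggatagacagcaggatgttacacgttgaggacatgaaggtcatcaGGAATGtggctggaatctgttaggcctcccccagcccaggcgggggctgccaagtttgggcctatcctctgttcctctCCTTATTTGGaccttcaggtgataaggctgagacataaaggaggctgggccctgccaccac

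The motifs, searched on both strands, were TATAAA (the TATA box), AGATAA (bound by GATA factors), CATTCC (bound by TEAD factors), TNAAGTG (bound by NKX2-5), the CArG box (bound by SRF) and the MEF2 site. In the MYH6 window TATAAA lay 30 to 25 bases before the start and CATTCC, read on the other strand as GGAATG, lay 238 to 233 bases before it. In the MYL7 window GGAATG lay 139 to 134 bases and a CArG box 61 to 52 bases before the start. Among all 35116 promoter windows of this length, 10.7% held TATAAA, 11.9% held CATTCC and 1.16% held a CArG box. These matches are letters in a window and are not evidence of binding.

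Library totals ran from 17523442 to 28872269 counts in the vehicle group, and 19818 to 20903 genes had at least 1 count. The alpha cell label held in both classes: GCG, which encodes glucagon, took 6.43 to 8.57% of counts in the high class and 6.35 to 8.79% in the low class. Summed CPM of MYH6, MYL7, TNNT2 and ACTC1 was 342 to 1767 in the high class and 4.60 to 20.7 in the low class, so the heart transcripts were a small part of the RNA even where they were high. In bulk RNA, fewer cells of a type and less RNA per cell cannot be told apart.

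The other 3 defining heart muscle transcripts were split in the same way as MYH6. MYL7 was 103, 66.7 and 396 CPM in DMSO 1, 4 and 5, and 1.94, 5.14 and 4.74 CPM in DMSO 2, 3 and 6. TNNT2, the gene of cardiac troponin T, which anchors the troponin complex to the thin filament, was 75.6, 61.9 and 463 CPM in the high class and 0.743, 2.68 and 3.01 CPM in the low class, in the same library order. DMSO 5 was the highest library for both genes, and the classes did not overlap. ACTC1, which encodes cardiac alpha-actin, was 75.3, 34.7 and 229 CPM against 1.20, 1.31 and 7.13 CPM. The fitted log2 differences, high minus low, were 7.21 ± 0.65 (SE) for MYH6, 5.30 ± 0.62 for MYL7, 6.05 ± 0.73 for TNNT2 and 5.02 ± 0.63 for ACTC1. CPM was also divided by the merged length of all annotated exons of each gene, which can exceed the length of its mRNA. On that scale MYL7 was the highest of the 4, at 70.8, 45.7 and 271 CPM per kb in DMSO 1, 4 and 5. MYH6 came next at 31.0, 27.5 and 105 CPM per kb. TNNT2 was above ACTC1 in DMSO 4 and DMSO 5 (63.8 against 49.8 CPM per kb in DMSO 5). In DMSO 1, ACTC1 was above TNNT2 (16.4 against 10.4 CPM per kb). Another choice of length may change this order, so it does not rank the 4 mRNAs.

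**Figure D1:**
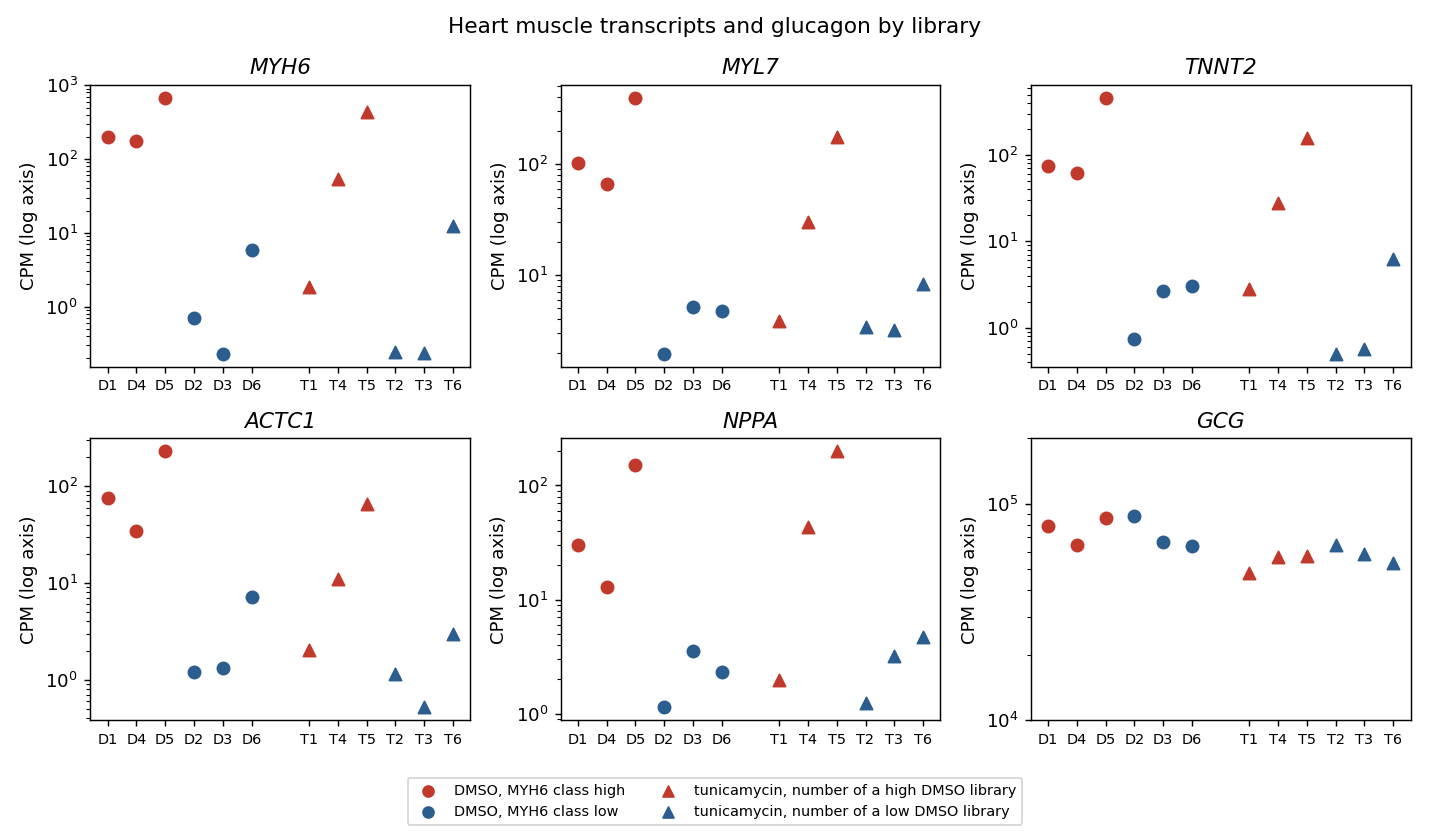
CPM on a log axis of 5 heart muscle genes and of GCG in the 12 libraries, 1 point per library. Circles are DMSO (D) and triangles tunicamycin (T) libraries, red for numbers 1, 4 and 5 and blue for numbers 2, 3 and 6. The 3 red circles lie above the 3 blue circles in every heart panel, GCG overlaps, and the red triangle of tunicamycin 1 lies at the low level, with MYH6 at 1.87 CPM.

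Few genes beyond the markers were called. The quasi-likelihood test of edgeR, with batch as a covariate, was fitted on 16867 genes, and a gene is called when its Benjamini-Hochberg adjusted p is under 0.05. It called 32 genes (0.19% of those tested), of which 31 were higher in the high class (0.184%) and 1 was lower (0.00593%). Of the 32, 17 belong to 4 heart lists of 88 genes. The classes were drawn on MYH6 in these libraries, so the heart share of the calls says nothing beyond the rule. At an unadjusted p under 0.05 the fit held 1119 genes, and DESeq2 called 128 (0.665%). Of the 32 genes, 15 also passed a filter asking for expression in all 6 libraries, so the others entered the test through the high class. Leaving out DMSO 3 ended every call, with edgeR adjusted p between 0.125 and 0.188 for the 15 called genes outside the heart lists. In that fit TNNT2 had a log2 difference of 6.54 and MYL7 one of 5.67. At an unadjusted p under 0.05 that fit held 1593 genes. Without DMSO 5 the count was 15 and without DMSO 6 it was 145. Independently of the fit, every high library lay above every low library for 6.66% of tested genes and below for 7.63%.

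**Figure D2:**
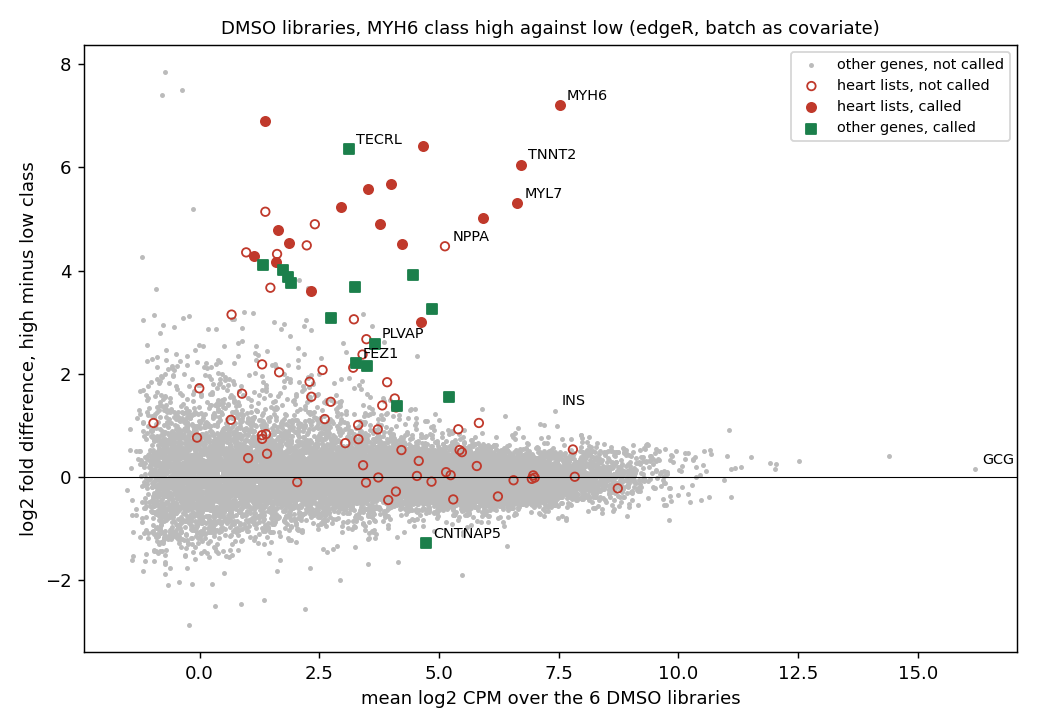
Fitted log2 fold difference between the high and low vehicle class against the mean log2 CPM of the 6 libraries, 1 point per tested gene. Red marks genes of the heart lists and green squares other called genes, filled where called. The called genes lie above 0 except CNTNAP5, and GCG lies near 0.

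The heart sarcomere list was the one with most members separated. Of its 30 members, 28 passed the filter on low counts, 12 were called higher and none lower, and 23 had all high libraries above all low ones. Of all tested genes, 0.184% were called higher and 6.66% had all high libraries above all low ones. Members that passed only through the high class had to differ, so the counts of members describe the list. The median log2 difference of the tested members was 3.68, against -0.01 over all genes tested. Its summed level was 935 to 3003 CPM in the high class and 378 to 497 CPM in the low class.

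Isoforms of atrial and early heart muscle were among the separated sarcomere genes. MYL4, the atrial essential light chain, was 32.6, 13.8 and 99.8 CPM in DMSO 1, 4 and 5, and 0.495, 0.114 and 0.753 CPM in DMSO 2, 3 and 6. TNNI1, the slow skeletal troponin I that early heart muscle uses, was 24.5, 18.4 and 87.5 CPM against 3.11, 4.96 and 5.27 CPM. MYL2, the ventricular regulatory light chain, was 0.416, 0 and 0.0891 CPM in the high class and at 0 in all 3 low libraries. Of the summed reads of MYL2 and MYL7, MYL2 took 0.401% in DMSO 1 (95% exact binomial interval 0.207 to 0.700%, counting error only) and 0.0225% in DMSO 5 (0.00273 to 0.0813%). In DMSO 4 it took 0 of 1351 reads, which allows a share of up to 0.273%.

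MYH7, the ventricular and slow muscle myosin, was 16.8, 1.78 and 7.39 CPM in DMSO 1, 4 and 5, and 0.0707, 0.457 and 0.664 CPM in DMSO 2, 3 and 6. It lies next to MYH6 on chromosome 14, with MYH6 at 23381990 to 23408277 and MYH7 at 23412738 to 23435718 (GENCODE 29, GRCh38). The 2 genes are closely related in sequence, so the assignment of some reads between them is uncertain. As counted, MYH7 took 7.71% of their summed reads in DMSO 1 (95% exact interval 7.06 to 8.39%), 0.985% in DMSO 4 (0.691 to 1.36%) and 1.08% in DMSO 5 (0.921 to 1.25%). TNNI3, the troponin I of the mature heart, took 10.4, 8.60 and 3.06% of the summed TNNI3 and TNNI1 reads in DMSO 1, 4 and 5, and its own level overlapped between classes at 2.84, 1.73 and 2.76 CPM against 0.530, 2.28 and 0.487 CPM.

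Thin filament, cross-linking and Z-disc genes followed the same split. TNNC1, the troponin C of heart and slow muscle, was 19.0, 6.37 and 65.2 CPM in the high class and 0.248, 0.571 and 0.709 CPM in the low class. MYBPC3, the cardiac myosin-binding protein C, was 18.0, 20.7 and 66.5 CPM against 0.990, 1.31 and 1.33 CPM. ACTN2, the sarcomeric alpha-actinin of the Z-disc, was 19.2, 11 and 46.6 CPM against 0.424, 0.913 and 1.02 CPM. For MYBPC3, unlike the 4 markers, DMSO 4 was above DMSO 1. CSRP3, a muscle LIM protein of the Z-disc, was 14.2, 3.65 and 46.5 CPM against 0.0707, 0 and 1.20 CPM. Several sarcomere-list genes overlapped between the classes. TTN, the gene of the giant spring protein titin, was 54.3, 47.3 and 41.7 CPM against 23.8, 65.6 and 27.6 CPM. NEBL, a nebulin relative, was 83.6, 92.1 and 102 CPM against 105, 82.2 and 96.9 CPM, and its log2 difference was -0.06 ± 0.21.

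Of the 24 heart transcription factors and regulators, 23 were tested, 2 were called higher (SMYD1 and SHOX2) and none lower, and 8 had all high libraries above all low ones. The shares over all tested genes were 0.184% called higher and 6.66% separated higher. The median log2 difference of the list was 0.83. NKX2-5, the early heart homeobox factor, was 4.43, 2.37 and 22.6 CPM in DMSO 1, 4 and 5, and 0, 0.228 and 0.576 CPM in DMSO 2, 3 and 6. TBX5, a T-box factor of atria and left ventricle, was 4.29, 3.41 and 8.95 CPM against 0, 0.742 and 0.177 CPM. Neither was called, although the classes did not overlap. NR2F2, a nuclear receptor of atrial identity that other tissues also express, was 98.3, 50.5 and 73.0 CPM against 40.1, 41.8 and 36.0 CPM. IRX4, a ventricular homeobox factor, stayed at 1.04 CPM or below in all 6 libraries. GATA4 was 103, 143 and 118 CPM in the high class and 125, 136 and 111 CPM in the low class. ISL1, a factor of heart progenitors and of islet cells, was 242, 214 and 212 CPM against 242, 243 and 217 CPM. Both of these shared regulators overlapped between the classes, with log2 differences of -0.04 ± 0.21 for GATA4 and 0.00 ± 0.20 for ISL1.

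Of the 20 calcium handling and channel genes, 18 were tested, 1 was called higher and none lower, and 6 had all high libraries above all low ones. The shares over all tested genes were 0.184% called higher and 6.66% separated higher. The median log2 difference of the list was 0.31. Its summed levels overlapped, at 772 to 858 CPM in the high class and 803 to 881 CPM in the low class. The called gene was GJA5, the connexin 40 of atrial gap junctions, at 6.27, 7.30 and 30.4 CPM against 0.0707, 0.285 and 0.531 CPM. PLN, the phospholamban that restrains the calcium pump, was 9.28, 4.69 and 33.8 CPM against 1.59, 3.77 and 0.886 CPM. The pump itself, ATP2A2, which many cell types express, was 371, 435 and 378 CPM against 509, 394 and 460 CPM. KCNH2, a potassium channel of heart repolarisation that islet cells also express, was 112, 142 and 126 CPM against 142, 124 and 118 CPM.

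Of the 14 genes of heart peptides and metabolism, 11 were tested, 2 were called higher (CKM and MB) and none lower, with a median log2 difference of 1.84. The share called higher over all tested genes was 0.184%. NPPA, the atrial natriuretic peptide, was 30.0, 12.9 and 151 CPM in DMSO 1, 4 and 5, and 1.13, 3.54 and 2.30 CPM in DMSO 2, 3 and 6. FABP3, the heart fatty acid-binding protein, was 15.7, 13.3 and 42.1 CPM against 3.50, 3.08 and 10.6 CPM. CKM, the muscle creatine kinase, was 7.20, 3.45 and 16.1 CPM against 0.283, 0.628 and 1.11 CPM. The heart peptide and the muscle enzymes were highest in DMSO 5, as the sarcomere genes were.

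Of the skeletal muscle regulators, MYF5 was at 0 in all 12 libraries and MYOD1 was at or below 0.658 CPM in the vehicle libraries. PAX3, a factor of muscle progenitors and of neural crest, was 17.5 CPM in DMSO 1 and at or below 0.534 CPM in the other 5. Of the 17 skeletal muscle genes, 5 were tested and none called, and the summed level was 20.5 to 56.2 CPM in the high class and 18.3 to 31.0 CPM in the low class. The calls outside the lists included other striated muscle genes. TECRL, an enoyl reductase-like gene of heart muscle, was 10.2, 8.69 and 30.6 CPM against 0, 0 and 0.531 CPM. HSPB7, a small heat shock protein of heart and skeletal muscle, was 30.0, 16.7 and 73.7 CPM against 0.813, 3.88 and 2.88 CPM. JPH2 (which ties the cell membrane to the calcium store), TRIM55 and UNC45B (a myosin chaperone) did not exceed 11.7 CPM. TECRL, JPH2, TRIM55 and UNC45B passed the filter through the high class alone, so their calls support nothing.

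Of the 11 smooth muscle genes, 9 were tested and 2 called higher, where 0.184% of all tested genes were, with a median log2 difference of 0.47. Their summed level overlapped, at 304 to 362 CPM in the high class and 263 to 339 CPM in the low class. ACTA2, the smooth muscle alpha-actin that early heart muscle also expresses, was 19.5, 6.86 and 24.9 CPM in DMSO 1, 4 and 5, and 1.10, 1.60 and 1.51 CPM in DMSO 2, 3 and 6. Its log2 difference was 3.68 ± 0.48 (edgeR adjusted p = 0.00731). CNN1, the smooth muscle calponin, was 11.7, 5.68 and 17.7 CPM against 1.03, 0.628 and 2.26 CPM, a log2 difference of 3.09 ± 0.51 (edgeR adjusted p = 0.0347). MYL9, a regulatory light chain of smooth and non-muscle myosin, was 32.1, 24.2 and 99.0 CPM against 3.08, 3.65 and 6.73 CPM (3.26 ± 0.44, edgeR adjusted p = 0.00976). MYH11, the defining smooth muscle myosin, was at or below 0.0693 CPM, and TAGLN, an abundant smooth muscle actin-binding protein, overlapped at 24.7, 19.2 and 21.9 CPM against 11.2, 25.9 and 27.2 CPM. The call of CNN1 was also lost without DMSO 1, where its log2 difference was 2.42, and without DMSO 5, where it was 2.78. With a filter asking for expression in all 6 libraries CNN1 lost its call too, at 3.10. Among the alternatives that tested them, ACTA2 and MYL9 lost their calls only when DMSO 3 was left out.

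Of the endothelial genes, 7 separated the classes and 1 was called. The list holds 14 genes of endothelium and endocardium, the lining of vessels and of the heart, of which 13 were tested. The 7 genes had all high libraries above all low ones, as had 6.66% of all tested genes, and 0.184% of all tested genes were called higher. The median log2 difference was 1.43. PLVAP, which forms the diaphragms of endothelial pores, was 30.5, 23.0 and 10.5 CPM in DMSO 1, 4 and 5, and 1.98, 4.68 and 4.52 CPM in DMSO 2, 3 and 6, a log2 difference of 2.58 ± 0.41 (edgeR adjusted p = 0.0257). Its call was lost without DMSO 1 (1.90), without DMSO 4 (2.47) and with log2 MYH6 CPM in place of the class. CDH5, the VE-cadherin of endothelial junctions, was 11, 8.44 and 7.17 CPM against 1.91, 4.62 and 3.85 CPM, and was not called (1.43 ± 0.38). PECAM1, a junction protein of endothelium, was 19.4, 17.4 and 9.53 CPM against 1.41, 9.47 and 4.83 CPM. Summed levels of the list overlapped, at 156, 108 and 66.9 CPM in DMSO 1, 4 and 5, and 19.4, 77.4 and 38.1 CPM in DMSO 2, 3 and 6. The order differs from that of the heart genes, because DMSO 5, highest in MYH6, was the lowest high library for PLVAP, PECAM1 and CDH5.

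The remaining named calls outside the heart lists were of various functions. FEZ1, a gene of neurite growth, was 20.2, 10.7 and 15.1 CPM against 2.97, 3.94 and 3.72 CPM (log2 difference 2.21 ± 0.32, edgeR adjusted p = 0.0158). MMP1, a secreted collagenase, was 28.2, 11.5 and 13.8 CPM against 3.01, 5.88 and 4.38 CPM (2.15 ± 0.34, edgeR adjusted p = 0.0257). MCAM, an adhesion molecule of vessel walls, was 73.9, 50.5 and 40.0 CPM against 13.2, 22.1 and 22.8 CPM (1.56 ± 0.26, edgeR adjusted p = 0.0347). Each of these was highest in DMSO 1. CNTNAP5, a neuronal adhesion molecule and the 1 gene called lower, was 14.7, 15.3 and 18.1 CPM against 31.4, 30.7 and 48.0 CPM (-1.28 ± 0.21, edgeR adjusted p = 0.0347). The calls of these 4 genes were lost without DMSO 1, at log2 differences of 1.83, 1.56, 1.01 and -1.48 in that order, and without DMSO 5, at 2.13, 2.17, 1.69 and -1.32. CNTNAP5 lost its call in every other library left out except DMSO 2, with -1.18 without DMSO 4 and -1.07 without DMSO 6. The CNTNAP5 call was also lost without the batch term (-1.165), with the filter asking for all 6 libraries (-1.27) and with log2 MYH6 CPM in place of the class. MCAM lost its call also without DMSO 4 (1.61) and with the filter asking for all 6 libraries (1.56).

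Of the 12 neural genes, 9 were tested and none called, and 3 separated higher, as did 6.66% of all tested genes. Their summed levels overlapped, at 1048 to 1161 CPM in the high class and 700 to 1193 CPM in the low class. SOX10, a factor of neural crest and glia that was named after its values were seen, was 59.2, 8.64 and 7.30 CPM in DMSO 1, 4 and 5, and 2.86, 2.74 and 4.83 CPM in DMSO 2, 3 and 6. MAB21L2, the 1 called gene whose classes overlapped, was 18.0 CPM in DMSO 1 and at most 1.20 CPM in the others, and its log2 difference was 3.88 with that library and 1.84 without it. Its call was also lost without DMSO 2 (3.52), without DMSO 5 (3.76) and without the batch term (3.34).

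Stromal transcripts overlapped between the classes. Of the 20 stromal fibroblast genes, 19 were tested, none was called and 1 separated higher, where 6.66% of all tested genes did. Their summed levels were 4920 to 6688 CPM in the high class against 2381 to 5214 CPM in the low class. COL1A1, a fibrillar collagen chain, was 436, 96.4 and 146 CPM in DMSO 1, 4 and 5, and 39.9, 250 and 99.7 CPM in DMSO 2, 3 and 6. DCN, the fibroblast proteoglycan decorin, was 52.1, 2.86 and 3.83 CPM against 1.45, 30.1 and 4.07 CPM. DMSO 3, in the low class with the lowest MYH6, had the second highest level of both. DLK1, a membrane ligand and imprinted gene, was the gene that separated, at 2756, 2621 and 2940 CPM against 997, 1692 and 1670 CPM. It was not called (0.92 ± 0.26), and it alone made up a large part of the summed levels of the list. The part of endothelial, neural and stromal transcripts in the high-low difference was not tested.

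**Figure D3:**
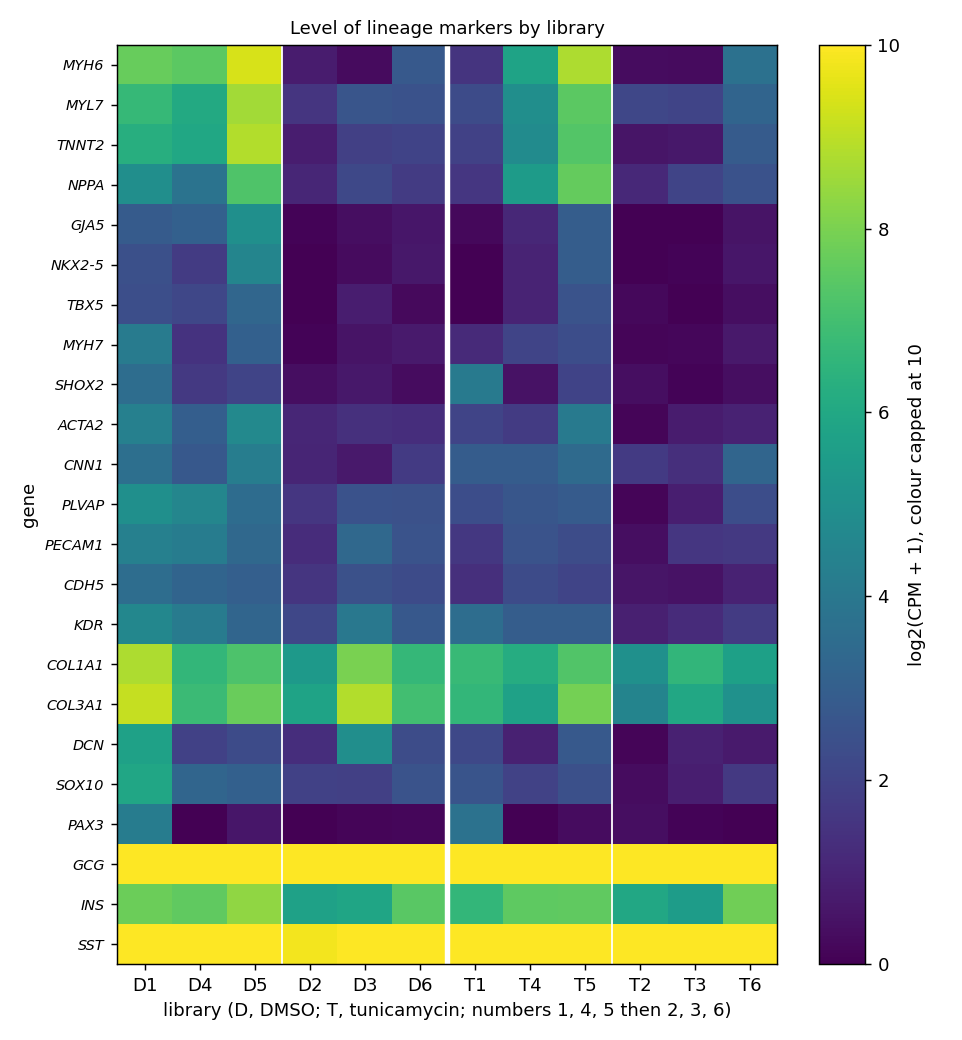
Colour gives log2(CPM + 1), capped at 10, for 23 genes of heart muscle, smooth muscle, endothelium, stroma, neural crest and islet in the 12 libraries. Numbers 1, 4 and 5 stand left of 2, 3 and 6 within each treatment. MYH6, MYL7 and TNNT2 are bright in D1, D4, D5, T4 and T5 and dark in T1, whereas PAX3 is bright in D1 and T1 alone.

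No list of islet genes held a called member. Of 22 alpha cell genes, all were tested and none called, with a median log2 difference of -0.13. GCG differed by 0.15 ± 0.36 on the log2 scale. Of the 9 other islet hormones 8 were tested and none called, and INS and GHRL, the ghrelin gene, separated higher, where 6.66% of all tested genes did. INS, which encodes insulin, was 215, 189 and 323 CPM in DMSO 1, 4 and 5, and 51.7, 58.4 and 175 CPM in DMSO 2, 3 and 6 (log2 difference 1.28 ± 0.30, edgeR adjusted p = 0.209). SST, the somatostatin gene, was highest in a low library, at 1538, 1422 and 2666 CPM against 914, 1235 and 5242 CPM. Of the 15 secretory granule genes 14 were tested, none was called and 3 separated lower (PCSK1, SNAP25 and STX1A), where 7.63% of all tested genes did, with a median of -0.37. Of 14 BMP and WNT target genes, all tested and none called, 4 separated higher, where 6.66% of all tested genes did. Among them ID1, an inhibitor of helix-loop-helix factors induced by BMP, was 320, 276 and 396 CPM against 234, 187 and 205 CPM. ER chaperones, proliferation genes and genes of hypoxia and glycolysis held no member called or separated.

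The genes most like MYH6 were ranked by the Pearson correlation of log2(CPM + 1) over the 6 vehicle libraries, among 15484 genes with a mean of at least 1 CPM. The 15 highest had r of 0.978 to 0.994, and 3 of them were heart-list genes (ACTC1, SMYD1 and NPPB). TECRL also ranked among them. Of the other 11, DKKL1 had a log2 difference of 1.69 and the remaining 10 had 0.24 to 0.73. CKB, the brain-type creatine kinase, was 318, 325 and 381 CPM against 207, 189 and 252 CPM, and MRPL43, a mitochondrial ribosomal protein, was 58.1, 58.6 and 61.1 CPM against 50.2, 49.9 and 51.4 CPM. Over the 6 tunicamycin libraries the same 15 genes had r of -0.16 to 0.98. The 6 points are the same libraries that drew the classes and share 2 batches, so r is a description.

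The tunicamycin libraries were not used to draw the classes, so the same split by number can be tested there. MYH6 was 1.87, 54.2 and 434 CPM in tunicamycin 1, 4 and 5, and 0.247, 0.239 and 12.2 CPM in tunicamycin 2, 3 and 6. Tunicamycin 4 and 5 held heart transcripts, whereas tunicamycin 1 lay below tunicamycin 6 for MYH6, MYL7, TNNT2 and ACTC1. The log2 difference of MYH6 by number was 4.04 ± 1.03 (edgeR adjusted p = 0.89), that of TNNT2 was 3.34 ± 0.83 (0.879 adjusted by edgeR) and that of MYL7 was 2.03 ± 1.12. The fit tested 16596 genes and called 0 (0%), with 717 at an unadjusted p under 0.05 by edgeR. DESeq2 called 124 (0.555%), of which 8 were heart-list genes: MYH7, MYL4, MYOZ2, XIRP1, SHOX2, SMYD1, NPPB and LPL. Leaving out tunicamycin 4 gave 5 calls and leaving out tunicamycin 6 gave 1.

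Of the 32 genes called in the vehicle libraries, 24 were tested under tunicamycin. All 24 had the same sign there and 13 had an unadjusted p under 0.05 by edgeR, as had 717 of all 16596 tested genes. The 32 include MYH6, which drew the classes, and genes that passed the vehicle filter only through the high class. Many are muscle genes that rise and fall together, so the 24 signs are not 24 separate observations. Whether a shared number marks 1 culture was not stated, so the tunicamycin libraries may not be an independent check. Of all 32, 8 were separated in the same direction (ACTA2, ACTN2, FEZ1, PLVAP, SHOX2, SMYD1, TECRL and TRIM55), where 4.59% of tested genes separated higher and 2.96% lower. FEZ1 was among the separated ones, at 27.6, 7.49 and 12.5 CPM in tunicamycin 1, 4 and 5, and 3.85, 3.14 and 3.79 CPM in 2, 3 and 6. ACTA2 was too, at 3.09, 2.36 and 15.9 CPM against 0.0988, 0.716 and 0.947 CPM. Neither passed the adjusted threshold. Of the genes that were highest in DMSO 1, PAX3 was 12.7 CPM, MAB21L2 23.3 CPM and the heart-list factor SHOX2 16.6 CPM in tunicamycin 1, whereas SOX10 was 5.01 CPM there.

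Libraries of equal number were also compared gene by gene, as values with no test. For the 17 called heart genes, the ratio of tunicamycin to DMSO CPM had a median of 0.0369 for number 1, 0.444 for number 4 and 0.421 for number 5. The ratio was below 1 for 16, 15 and 16 of the 17 genes. These genes were called for being high in the DMSO libraries that form the denominators. Ratios below 1 are therefore expected from that choice, and an effect of tunicamycin was not tested. MYH6 itself was 179 CPM in DMSO 4 beside 54.2 CPM in tunicamycin 4, and 679 beside 434 CPM for number 5. The natriuretic peptide genes were higher under tunicamycin in numbers 4 and 5. NPPA was 12.9 CPM in DMSO 4 beside 43.3 CPM in tunicamycin 4, and 151 beside 200 CPM for number 5, but 30.0 beside 1.96 CPM for number 1. NPPB, the brain natriuretic peptide, was 2.81 and 11.9 CPM in number 4, 4.54 and 28.9 CPM in number 5, and 4.23 and 8.10 CPM in number 1. XIRP1, an actin-binding protein of intercalated discs, was 2.57 and 5.09 CPM in number 4 and 9.35 and 18.5 CPM in number 5. As a share of MYH6 counts, NPPA was 7.24% in DMSO 4 and 79.8% in tunicamycin 4, and 22.2% and 46.0% in the libraries numbered 5. NPPB was higher under tunicamycin in the low numbers too, at 3.31, 2.86 and 5.97 CPM against 0.495, 0.457 and 1.55 CPM, whereas NPPA was 1.23, 3.18 and 4.69 CPM against 1.13, 3.54 and 2.30 CPM.

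**Figure D4:**
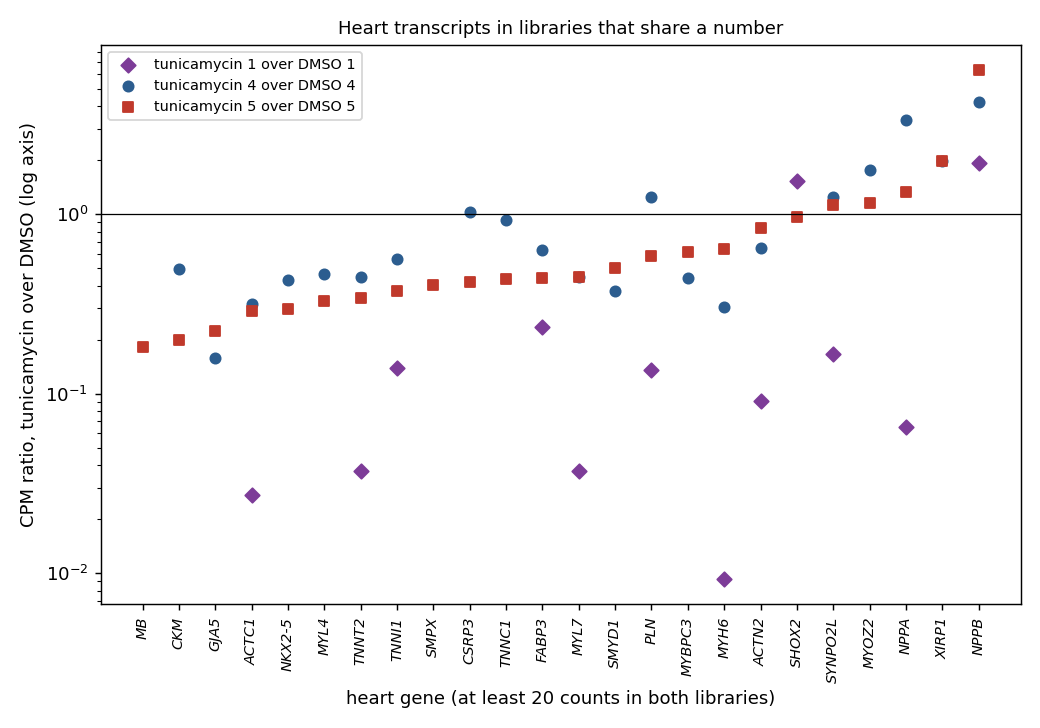
CPM ratio of tunicamycin to DMSO, on a log axis, in libraries that share number 1, 4 or 5, for heart genes with at least 20 counts in both libraries. Points are single libraries without error. The called genes among them were chosen for high levels in these DMSO libraries. Sarcomere genes of numbers 4 and 5 lie mostly below 1, NPPA, XIRP1 and NPPB lie above 1 in both, and number 1 lies far below 1 except for SHOX2 and NPPB.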

How the data were processed

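RNA of 12 libraries was counted per gene. The authors deposited 1 table of raw counts, whole numbers for 28278 gene symbols with no normalization. The submitters' processing notes name GRCh38, cutadapt 4.4, HISAT2 2.1.0 and featureCounts 2.0.6. The annotation and whether strand was used in counting were not stated, which leaves overlapping, antisense and near-identical genes uncertain.

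CPM is the count divided by the library total. Genes kept by filterByExpr were tested with edgeR 4.0.16 (R 4.3.3) by its quasi-likelihood test with TMM factors and batch as covariate, two-sided, in the 6 DMSO libraries and, by shared number, in the 6 tunicamycin libraries. Log2 differences are given with a standard error back-calculated from the test. It is the absolute log2 difference divided by the square root of the quasi-likelihood F statistic. Alternatives were DESeq2 1.42.0, RLE factors, other filters, no batch term, log2 MYH6 CPM in place of the class, and each library left out. Exon lengths (all exons of all transcripts of a gene, merged) and gene positions came from GENCODE 29, promoters from RefSeq. No pair of libraries within a treatment agreed within counting noise (chi-square of 10.9 to 99.6 per gene, genes with 20 counts or more), so each library was counted separately.

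The classes and the 28 gene lists were chosen with earlier results of these data known. Named were heart-list genes with a mean of at least 5 CPM, the called or 2 most abundant members of other lists, the 10 largest called differences per direction outside the heart lists at a mean log2 CPM of 2 or more without overlap, the 15 genes most like MYH6, and GCG, INS and COL1A1. Some genes this rule names are not reported here. Named outside it, after their values were seen, were MYH7, MYL2, TNNI3, MYOZ2, SMYD1, SHOX2, TBX5, IRX4, CKM, MB, XIRP1, JPH2, TRIM55, UNC45B, MAB21L2, SOX10, PAX3, MYF5, MYOD1, MYH11, TAGLN, CDH5, PECAM1, DCN, DLK1, PCSK1, SNAP25, STX1A, ID1 and LPL.

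In simulated counts for the DMSO comparison, on 16621 genes with 200 changed, recovery was 26.0% at a 2-fold change, 86.0% at 4-fold and 100% at 16-fold. Of 173 calls, 9.8% were false. For the tunicamycin comparison, on 16370 genes, recovery was 45.8%, 82% and 98%, and 6.9% of 174 calls were false. The changed genes were drawn at random and shifted equally in every library of a class, with no batch effect. The real heart genes were uneven within a class, so these shares do not give the power for them.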

Additional observations from a re-analysis of the deposited data

Results flagged for a closer look

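In sets of 6 libraries of 1 treatment, 28 of the 86 sets of values examined held a library far from the other 5. The sets were mostly heart-list and called genes, many of them split between the classes, and include MYH6, which drew the classes. The limit used would flag about 1 in 20 sets of values drawn from 1 normal distribution. These values were not drawn that way, so the count is a description and not a test. The heart genes also rise and fall together, so the sets are not independent. Among vehicle libraries, DMSO 5 was far above the others in 20 sets. They were the summed level of the 4 markers (1767 CPM), MYH6 (679 CPM), TNNT2 (463 CPM), MYL7 (396 CPM), TPM1 (375 CPM), ACTC1 (229 CPM), NPPA (151 CPM), MYL4 (99.8 CPM), MYL9 (99.0 CPM), TNNI1 (87.5 CPM), MYBPC3 (66.5 CPM), TNNC1 (65.2 CPM), CSRP3 (46.5 CPM), FABP3 (42.1 CPM), PLN (33.8 CPM), NEXN (32.7 CPM), TECRL (30.6 CPM), GJA5 (30.4 CPM), NKX2-5 (22.6 CPM) and SMPX (9.58 CPM). DMSO 1 was far above the others in NR2F1 (53.0 CPM), MAB21L2 (18.0 CPM) and SHOX2 (10.8 CPM). Among the tunicamycin libraries, where the 4 markers, their sum and the total were examined, tunicamycin 5 stood far above in MYH6 (434 CPM), MYL7 (176 CPM), TNNT2 (158 CPM), ACTC1 (66.0 CPM) and the marker sum (834 CPM).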

How the results depend on the processing

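The count of 32 genes called between the vehicle classes was 128 with DESeq2 (112 higher, 16 lower), 317 with no filter on low counts (274 higher, 43 lower), and 10 with a filter asking for expression in all 6 libraries, where 15 of the 32 genes were still tested. It was 0 to 145 with 1 library left out: 0 without DMSO 3, 15 without DMSO 5 and 145 without DMSO 6. The cause was not tested. RLE factors (35), no batch term (40) and log2 MYH6 CPM as a continuous covariate (46) kept it within 1.5 times. In the tunicamycin libraries the count of 0 was 124 with DESeq2 and 34 with no filter, and 0 to 5 with 1 library left out.

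Over 78 genes, 996 values were compared with the main vehicle fit, under these alternatives (the continuous covariate aside) and within single batches. Of these, 817 kept their side of the threshold or, for values without a test, stayed within the replicate spread. Another 83 kept their direction but were no longer called, 48 became called, and 48 values without a test moved beyond the replicate spread. Among genes called in the main fit, 0 values reversed. Direction was not compared for the other genes where they stayed uncalled or had no test. All 32 called genes were called by DESeq2, with RLE factors and with no filter. In every alternative that tested them except leaving out DMSO 3, 11 stayed called: MYH6, MYL7, MYL4, TNNT2, TNNC1, ACTC1, ACTN2, MYBPC3, GJA5, ACTA2 and MYL9. No paired analysis was possible because high and low libraries share no replicate number. With 3 libraries against 3, an exact permutation test of a single value cannot go below 0.1. Members under 1 CPM rest on few counts, and a difference between them was not detectable at this depth.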
